A study of Mus musculus with 15 samples.

Results

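The identity of microglia, the resident macrophages of the brain, is set by a small circuit of transcription factors, and 9 of them were followed here through a single dose of an antibody against the microglial receptor TREM2. The 9 genes (Sall1, Spi1, Irf8, Mef2a, Mef2c, Runx1, Maf, Cebpa and Bhlhe41) were taken by name from a matrix of 32372 genes, and all 9 were among the 14260 genes tested. The cells came from male hTfR KI mice on C57BL/6J, 3.5 months old, in which the transferrin receptor is humanised so that the brain-penetrant antibody format ATV (antibody transport vehicle) can bind it. Every animal received a single 10 mg/kg dose: the control group received ATV:RSV, the same format without the TREM2 arm, and was taken at day 1, and 4 groups received ATV:4D9 and were taken at day 1, 7, 14 or 28, with 3 mice per group and each of 3 processing batches holding all 5 groups. The hTfR KI allele was shared by all groups, so no comparison addresses it, and with controls at day 1 only the later days differ from them in both antibody and time. Dissociated cortex and hippocampus was enriched for CD45+ cells on beads, and each mouse gave 1 droplet library. A further control animal that the labels mention was not analysed here.

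Spi1, which encodes PU.1, together with Cebpa, Runx1 and Irf8 belongs to the factors that set up the myeloid and macrophage lineage and open enhancers in these cells. Mef2a, Mef2c and Maf encode factors that act at macrophage and microglial enhancers alongside PU.1, and Sall1 encodes a zinc-finger regulator that, among brain macrophages, is largely restricted to microglia and is needed to keep them in their homeostatic state. Bhlhe41 encodes a repressor of the basic helix-loop-helix family that is expressed in microglia and other tissue macrophages.

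The genes lie on 6 chromosomes of mm10 (GENCODE M21): Sall1 at chr8:89027235-89044162 (minus strand), Irf8 at chr8:120736358-120756694 (plus), Maf at chr8:115682942-115707794 (minus), Spi1 at chr2:91082390-91115756 (plus), Mef2a at chr7:67231163-67372858 (minus), Cebpa at chr7:35119293-35121928 (plus), Mef2c at chr13:83504034-83667080 (plus), Runx1 at chr16:92601466-92826149 (minus) and Bhlhe41 at chr6:145858243-145865558 (minus). All are protein coding. The annotation places other gene models over 6 of the 9, on the same strand for Gm20388 (Irf8), Gm44667 and Gm44668 (Mef2a) and on the opposite strand for Lysmd4 (Mef2a), Gm26626 (Runx1), Gm15655 (Maf), Gm45091 (Cebpa) and Gm43909 (Bhlhe41). How reads in the overlaps were assigned is not given in the sources used here.

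RefSeq promoters (GRCm38.p6, the same assembly as mm10) were matched for 7 of the 9 genes, with 13 annotated starts; Spi1 and Maf had no entry. The 250 bases before the start are shown for the gene with the largest fall (Cebpa, chr7:35119043-35119292, plus strand), the gene whose direction depended on the quantity measured (Irf8, first of 2 starts, chr8:120736108-120736357, plus strand) and the gene with the largest rise (Bhlhe41, chr6:145865421-145865670, minus strand). Capitals mark TATAAA or CACGTG.
Cebpa: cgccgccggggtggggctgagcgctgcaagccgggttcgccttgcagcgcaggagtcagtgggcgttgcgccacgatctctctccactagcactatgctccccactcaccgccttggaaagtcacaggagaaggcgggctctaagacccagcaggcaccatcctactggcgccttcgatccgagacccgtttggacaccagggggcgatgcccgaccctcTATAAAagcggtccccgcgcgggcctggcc
Irf8: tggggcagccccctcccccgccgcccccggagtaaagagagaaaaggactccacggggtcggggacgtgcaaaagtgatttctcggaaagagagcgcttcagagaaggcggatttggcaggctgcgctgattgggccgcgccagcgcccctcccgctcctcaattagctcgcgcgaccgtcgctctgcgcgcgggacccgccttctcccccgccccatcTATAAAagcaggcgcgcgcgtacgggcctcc
Bhlhe41: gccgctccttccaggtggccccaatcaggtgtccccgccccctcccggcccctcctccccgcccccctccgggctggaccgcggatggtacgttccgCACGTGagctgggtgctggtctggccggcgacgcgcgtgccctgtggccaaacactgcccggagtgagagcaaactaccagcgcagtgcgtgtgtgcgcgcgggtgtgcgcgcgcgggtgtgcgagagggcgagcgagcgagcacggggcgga
The letters TATAAA stood from -30 to -25 before the Cebpa start and from -31 to -26 before the Irf8 start. In this orientation they occurred in 7.59% of the 32851 promoters of the table, and on either strand in 12.37%. On the opposite strand they also stood before 2 of the 3 Mef2c starts, from -107 to -102 and from -22 to -17. The E-box CACGTG, the letters that bHLH repressors of the Bhlhe41 family recognise, stood from -153 to -148 before the Bhlhe41 start, and was present in 6.02% of all promoters and also before 1 of the 2 Runx1 starts. Both strands were searched as well for GAGGAAGT (PU.1, 2.44% of all promoters), TTGCNNAA (C/EBP, 9.56%), TGTGGT (RUNX, 14.05%), GAAANNGAA (interferon regulatory factors, 7.13%) and TGCTGAC (MAF, 3.81%). None of these letters stood in the 250 bases before any of the 13 starts, which says nothing about binding of the factors there or elsewhere. The GC box GGGCGG, in 32.74% of all promoters, stood before starts of Sall1, Irf8, Mef2c and Bhlhe41 and overlapped none of the letters in capitals.

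Mef2a and Mef2c are paralogs, and their coding sequences open with the conserved MADS box that binds DNA. The first 171 coding bases of the longest complete GENCODE M21 transcript of each are given because the responses of the 2 genes are set side by side, with capitals where they differ.
Mef2a: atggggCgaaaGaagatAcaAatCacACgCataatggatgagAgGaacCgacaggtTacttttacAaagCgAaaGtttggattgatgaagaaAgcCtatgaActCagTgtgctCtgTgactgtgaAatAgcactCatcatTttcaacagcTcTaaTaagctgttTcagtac
Mef2c: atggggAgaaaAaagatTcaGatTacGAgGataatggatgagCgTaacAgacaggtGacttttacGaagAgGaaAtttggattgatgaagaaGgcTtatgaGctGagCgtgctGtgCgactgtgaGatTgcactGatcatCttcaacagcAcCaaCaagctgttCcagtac
Of these bases, 140 of 171 (81.9%) were the same, and 25 of the 31 differences fell on the third base of a codon. The libraries read transcript 3' ends, so these bases identify the genes and are not what was counted.

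The matrix held 102043 cells with 707518630 unique molecular identifiers (UMIs, each standing for 1 captured RNA molecule), between 32341960 and 70307384 per mouse. Cells of ATV:4D9 day 1 were deeper than the rest, with a median of 8513 ± 424 UMIs per cell (SD over mice, n = 3) against 5317 ± 396 in the control mice. Cells with a UMI of the proliferation genes Mki67 or Top2a made up 19.6 to 27.4% of the cells of each ATV:4D9 day 1 mouse and at most 0.684% in any other mouse. The microglial markers P2ry12 and Siglech stood at means of 2052 and 1166 CPM (UMIs of a gene per library, scaled as described below) in control mice and of 828 and 596 CPM in ATV:4D9 day 1 mice, and T and NK cell markers together at 1.54 CPM or less in every mouse. Border macrophage markers summed to 20.3 to 30.5 CPM in ATV:4D9 day 1 mice against 16.4 to 19.995 in controls, and monocyte markers to 15.9 to 19.9 against 4.27 to 11.2, while neutrophil markers reached 142 CPM in 1 mouse of ATV:4D9 day 7. Astrocyte markers (125 to 135 against 204 to 252 CPM), endothelial and mural markers (10.5 to 16.6 against 19.6 to 25.3), neuron markers (5.31 to 7.23 against 8.995 to 11.6) and, by a narrow gap, oligodendrocyte markers (73.2 to 83.3 against 83.8 to 101.5) were lower at day 1, and the median mitochondrial share of a cell's UMIs was higher, at 3.96 to 4.50% against 3.11 to 3.38%. Cells with 3 or more markers were few for monocytes (at most 1 per mouse) and for neutrophils at ATV:4D9 day 7 (1, 0 and 1 by replicate). For border macrophages they numbered 62, 80 and 81 at ATV:4D9 day 1 against 31, 25 and 15 in controls. No marker of these lists was at 0 over all mice together. The part of other cell types in the results below was not tested beyond leaving out cells with 3 or more markers of another type. Libraries shared 5 to 27 cell barcodes per pair over 105 pairs.

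One day after ATV:4D9, Cebpa, Maf, Mef2a, Sall1, Mef2c, Runx1 and Irf8 were lower and Bhlhe41 and Spi1 higher than in ATV:RSV mice. The falls reached 0.371 of the control level for Cebpa, 0.443 for Maf and 0.501 for Mef2a, and the rises 1.29-fold for Bhlhe41 and 1.19-fold for Spi1. All 9 genes passed the test on UMIs summed per mouse (limma-voom, adjusted p under 0.05 over all genes tested), with 2 higher and 7 lower. Levels are CPM after TMM scaling, which sets libraries level on the bulk of their genes and not on total UMIs. That share has to be read against the whole table, in which 69.2% of genes passed in this comparison, 34.7% higher and 34.6% lower. In none of the 9 did the ATV:4D9 day 1 mice overlap the control mice in scaled CPM, which held for 71.5% of all genes. The median log2 fold change was -0.51 over the 9 genes and -0.05 over all genes tested.

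**Figure D1:**
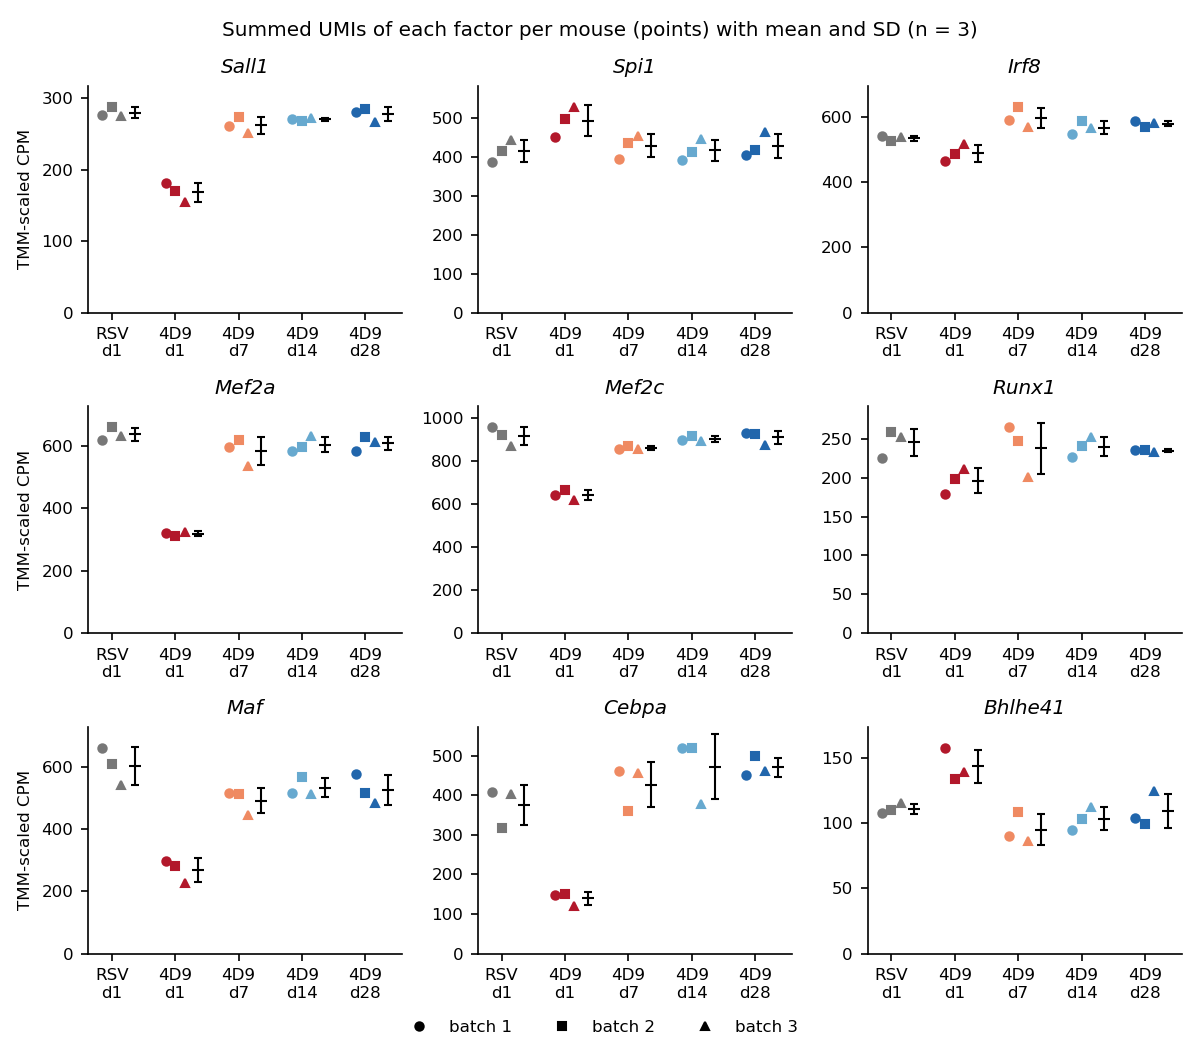
Summed UMIs of each factor in TMM-scaled CPM (y axis, linear, from 0) for each mouse, by group (x axis), with marker shapes for the 3 batches and the mean ± SD (n = 3) in black beside them. The ATV:4D9 day 1 mice stand apart from the control mice for all 9 genes, below them for 7 and above them for Bhlhe41 and Spi1, and the later groups lie near the control mice.

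Among the lineage factors, Cebpa, which drives myeloid differentiation, showed the largest change. Control mice of batches 1, 2 and 3 held 409, 317 and 403 TMM-scaled CPM of Cebpa, and ATV:4D9 day 1 mice 147, 149.6 and 121. Every treated mouse lay below 0.5 of its batch control, and the log2 fold change was -1.43 (SE 0.133, adjusted p = 1.06e-07). Runx1, a regulator of blood and microglial progenitors, stood at 226, 258 and 253 CPM in controls and at 179, 198 and 211 in ATV:4D9 day 1 mice. The highest treated mouse stood just below the lowest control, for a log2 fold change of -0.33 (SE 0.0867, adjusted p = 0.00344).

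Irf8, an interferon regulatory factor needed for microglial development, moved least in TMM-scaled CPM. Its levels were 541, 526 and 537 CPM in controls and 465, 485 and 516 CPM at day 1, a log2 fold change of -0.13 (SE 0.0484, adjusted p = 0.0251). The call did not hold without the cycling cells (-0.04, adjusted p = 0.484). Over 15 alternative settings it was kept in 7, with log2 fold changes from -0.37 to -0.04 and adjusted p between 2.87e-06 and 0.484. Relative to total UMIs alone Spi1 moved less than Irf8, as given below. In cells with a UMI of Mki67 or Top2a, Irf8 took a smaller share of UMIs than in the other cells of the same mice but more UMIs per cell, as given below.

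Spi1 rose. Controls held 388, 415 and 445 CPM and ATV:4D9 day 1 mice 451, 499 and 530, so that the lowest treated mouse stood just above the highest control, with a log2 fold change of 0.25 (SE 0.0750, adjusted p = 0.00872). Within each batch the difference was alike, at 0.22, 0.27 and 0.25. The rise depends on the scaling: relative to total UMIs alone the Spi1 difference was 0.00 (adjusted p = 0.961; 8.33e-06 to 0.961 over the 15 alternatives), under which the median of all genes shifted from -0.05 to -0.29. Spi1 thus took the same share of all UMIs at day 1 as in controls, while the median gene took a smaller one.

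Among the factors that specify microglia, Sall1 fell in every batch. Control mice held 276, 289 and 275 CPM and ATV:4D9 day 1 mice 181, 169.96 and 155, a log2 fold change of -0.73 (SE 0.0540, adjusted p = 6.34e-09). The SD was 7.48 CPM in the controls and 13.3 CPM in the treated mice, and the groups stood far apart. Mef2a fell from 620.98, 661 and 633 CPM to 320.9, 312 and 326, a log2 fold change of -0.998 (SE 0.0540, 95% CI -1.11 to -0.88, adjusted p = 1.72e-10), and its treated mice differed from each other by an SD of 6.82 CPM. Mef2c fell from 959.9, 922 and 873 CPM to 643, 666 and 619.7, a log2 fold change of -0.51 (SE 0.0435, 95% CI -0.61 to -0.42, adjusted p = 3.28e-08). The intervals of the paralogs do not overlap, although the difference between the genes was not itself tested.

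Maf, which encodes c-Maf, a regulator of macrophage maturation, stood at 664, 609 and 542 CPM in controls and at 298, 282 and 226 at day 1. Its log2 fold change was -1.18 (SE 0.101, adjusted p = 3.88e-08), and the within-batch values were -1.16, -1.11 and -1.26. Bhlhe41 went the other way, from 108, 110.4 and 115 CPM to 158, 134 and 139, a log2 fold change of 0.37 (SE 0.0950, adjusted p = 0.00272). Relative to total UMIs alone the Bhlhe41 difference was 0.13 and did not pass (adjusted p = 0.245; 0.000157 to 0.245 over the 15 alternatives). The falls of Sall1, Mef2a, Mef2c, Maf, Cebpa and Runx1 passed under all 15 alternatives.

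**Figure D2:**
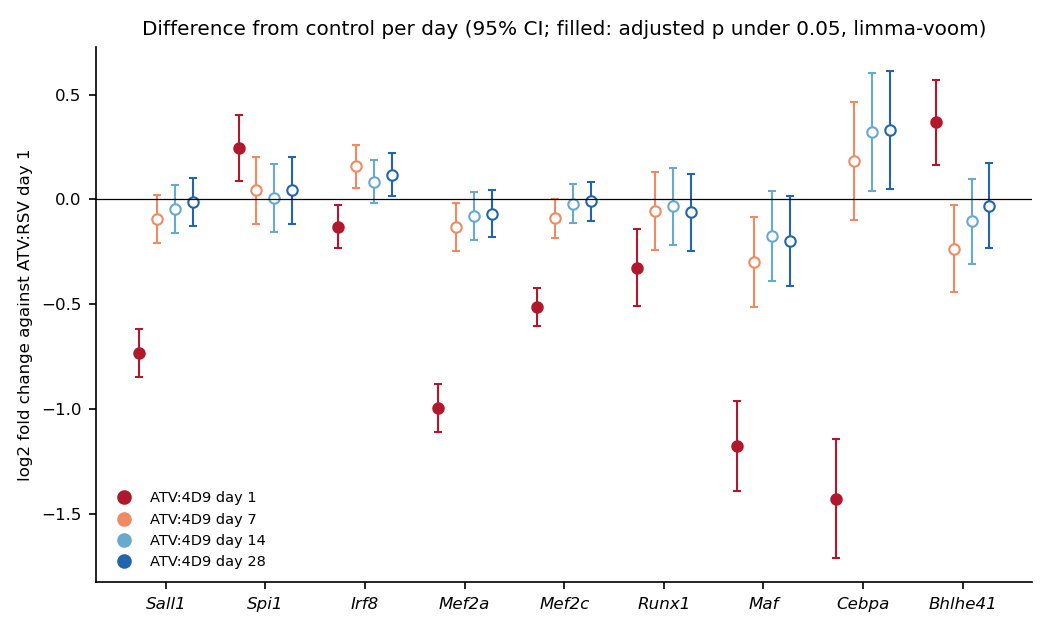
Log2 fold change of each factor against ATV:RSV day 1 (y axis) by day after ATV:4D9 (colours), with 95% confidence intervals, from UMIs summed per mouse (n = 3 per group). Filled circles, adjusted p under 0.05, appear at day 1 for all 9 genes, from -1.43 for Cebpa to 0.37 for Bhlhe41, and at no later day.

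By day 7 all 9 genes had moved against their direction at day 1, and Irf8, Bhlhe41 and Cebpa had crossed the control mean, with Irf8 further from it at day 7 (597 CPM) than at day 1 (489 CPM against 535 in controls). Against ATV:4D9 day 1 all 9 passed the test, 7 higher and 2 lower, where 66.9% of all genes passed, 33% higher and 33.9% lower. The log2 differences from day 1 to day 7 were 1.61 for Cebpa, 0.88 for Maf, 0.87 for Mef2a, 0.64 for Sall1, 0.42 for Mef2c, 0.29 for Irf8 and 0.27 for Runx1, and -0.20 for Spi1 and -0.60 for Bhlhe41. Those of Runx1 (adjusted p = 0.0122) and Spi1 (adjusted p = 0.0271) had overlapping mice, and each lost the call in some alternatives: Runx1 without the cycling cells (0.19), without replicate 1 of ATV:4D9 day 1 (0.20) or of ATV:4D9 day 7 (0.18), and Spi1 with library size scaling (-0.06), thinned cells (-0.14), or without replicate 2 (-0.20) or 3 (-0.15) of ATV:4D9 day 1 or replicate 1 of ATV:4D9 day 7 (-0.15).

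Against ATV:RSV, none of the 9 passed at day 7, when 3.98% of all genes did. An unadjusted p under 0.05 was found for 4 in limma-voom (Irf8, Mef2a, Maf and Bhlhe41). Of the 9, edgeR called 0 and DESeq2 1 (Irf8), where they called 635 and 871 of all 14260 genes. Relative to total UMIs alone 3 passed, Mef2a at -0.23, Mef2c at -0.19 and Maf at -0.39 (adjusted p from 0.0238 to 0.0325). Mice did not overlap the controls in 5 of the 9 (Sall1, Mef2a, Mef2c and Maf lower, Irf8 higher), which held for 21.2% of all genes. Maf stood lowest, at 517, 514 and 445 CPM, with a log2 fold change of -0.30 (SE 0.101, adjusted p = 0.126). It passed with the batches as a replicate block (adjusted p = 0.00737). Irf8 was above every control at 589.5, 632 and 569.5 CPM, the reverse of its direction at day 1, with a log2 fold change of 0.16 (SE 0.0485, adjusted p = 0.0887). Mef2a stood at -0.13, Bhlhe41 at -0.24, Sall1 at -0.10, Mef2c at -0.09, Runx1 at -0.06, Spi1 at 0.04 and Cebpa at 0.18.

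None of the 9 passed at day 14 or at day 28 by limma-voom, edgeR or DESeq2. Of all 14260 genes, DESeq2 called 132 at day 14 and 14 at day 28, and edgeR 59 and 0. In limma-voom 0.4 and 0% of all genes passed, and 1 and 2 of the 9 had an unadjusted p under 0.05. These were Cebpa at both days and Irf8 at day 28. Cebpa stood at 520.1, 521 and 378 CPM at day 14 and at 452, 499 and 462 at day 28, so that every day 28 mouse lay above the highest control, with log2 fold changes of 0.32 (SE 0.132, adjusted p = 0.756) and 0.33 (SE 0.132, adjusted p = 0.9998). Irf8 stood at 587, 569.6 and 583 CPM at day 28, above every control, at a log2 fold change of 0.12 (SE 0.0484). Maf remained at -0.18 and -0.20, below the control of its own batch in all 3 batches at day 7, 14 and 28. Groups that did not overlap the controls were found for 2 of the 9 at day 14 (Sall1 lower, Irf8 higher) and for 2 at day 28 (Irf8 and Cebpa higher), where 10.4 and 8.93% of all genes were in that position. Between day 7 and day 14, and between day 14 and day 28, 0 of the 9 passed by any of the 3 tools. In limma-voom 0 of the 9 had an unadjusted p under 0.05, and 0.912 and 0% of all genes passed. DESeq2 called 241 and 70 of 14260 genes in these 2 comparisons.

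Since CPM is a share and day 1 cells held more UMIs, the genes were also read per cell, first as UMIs per cell. Spi1 rose from 2.70, 2.53 and 2.87 UMIs per cell in controls to 4.04, 4.16 and 4.13, a ratio of 1.52. Bhlhe41 rose from 0.723 ± 0.0434 to 1.21 ± 0.181 (SD, n = 3), a ratio of 1.67. Irf8, lower as a share, was higher per cell, at 4.16, 4.04 and 4.03 against 3.77, 3.21 and 3.47. Runx1 (1.63 against 1.59) and Mef2c (5.38 against 5.98) overlapped the controls. Cebpa, Maf, Mef2a and Sall1 were below every control mouse on this scale too, at ratios of 0.475, 0.572, 0.644 and 0.776. Thus 4 of the 9 were lower per cell, 3 higher and 2 overlapping, where 14.7% of all genes were lower and 49.4% higher without overlap, and the median ratio over all genes was 1.24. Each comparison of 3 mice with 3 gave the smallest p the design allows or a larger one (exact two-sided permutation test, p = 0.1). None can therefore pass a threshold of 0.05. Permuting the 5 groups within the batches (exact permutation, 14400 arrangements) gave adjusted p from 0.00125 to 0.0441 for 8 of the 9. Mef2c stood at 0.0759. The permutation over 5 groups asks about any difference among them, does not single out day 1, and was not run over all genes. Runx1 passed it although its day 1 mice overlapped the controls.

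The second reading, cell by cell, was the share of cells with at least 1 UMI of the gene after thinning each cell to 3385 UMIs. This depth, the 10th percentile, left out 3.93 to 17.8% of the cells of a mouse. At a fixed depth, detection follows a gene's share of a cell's UMIs, without TMM scaling, and not its amount per cell. Relative to total UMIs alone, the median gene tested shifted by -0.29 at day 1, as given above. Cebpa was found in 62.7 ± 3.67% of control cells and 31.0 ± 3.36% of ATV:4D9 day 1 cells, Maf in 84.0 ± 2.36 and 53.2 ± 6.08%, and Mef2a in 86.9 ± 1.11 and 60.4 ± 0.879% (SD, n = 3). Sall1 fell from 61.7, 62.3 and 61.6% to 42.3, 40.6 and 35.5%. Mef2c (94.0 to 82.4%), Irf8 (82.7 to 73.6%) and Runx1 (53.9 to 41.0%) were also below every control mouse, Bhlhe41 was above (31.3 to 34.6%), and Spi1 was level (76.1 and 76.0%). For Bhlhe41 the lowest treated mouse (32.9%) stood next to the highest control (32.8%), and the groups overlapped when cells were thinned to 2000 UMIs (22.7 against 21.0%). Without thinning, the deeper day 1 cells gave 55.2% for Cebpa against 72.8% in controls and 68.5 against 76.0% for Sall1. Maf, Mef2a and Mef2c also stayed below every control mouse. Spi1 (92.9 against 85.9%) and Bhlhe41 (61.6 against 45.4%) were above every control. Irf8 (92.2 against 90.7%) and Runx1 (67.4 against 67.7%) overlapped the controls, so their falls on the thinned share depend on depth. In UMIs per cell, as given above, Irf8 was higher and Mef2c and Runx1 overlapped the controls. A cell held UMIs of 6.33 ± 0.0217 of the 9 factors in controls and 4.92 ± 0.126 at day 1 after thinning, and 6.01, 6.21 and 6.32 at day 7, 14 and 28. Being counted after thinning, these numbers also follow shares of UMIs and not amounts per cell. Permuting the 5 groups within batches gave adjusted p between 0.000625 and 0.0332 for the 9 genes (exact permutation test). That test covers all 5 groups at once and does not single out day 1, as Spi1 passed it while level at day 1. Neither this test nor the separation from the controls on the thinned share was computed over all genes.

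**Figure D3:**
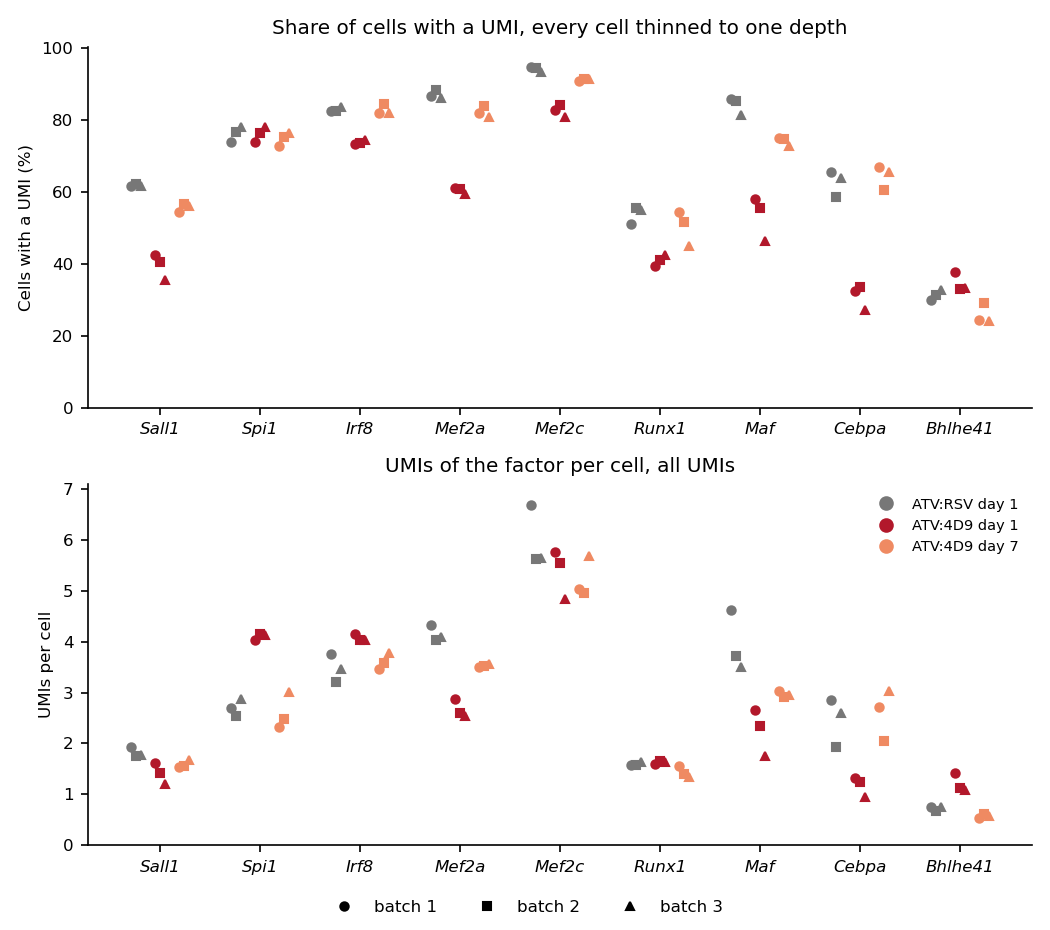
Top, percentage of cells with a UMI of each factor after every cell was thinned to 3385 UMIs; bottom, UMIs of the factor per cell without thinning; points are mice of ATV:RSV day 1, ATV:4D9 day 1 and ATV:4D9 day 7, with marker shapes for batches. Irf8 is below the control mice in the top panel (73.6 against 82.7%) and above them in the bottom panel (4.08 against 3.48), while Cebpa, Maf, Mef2a and Sall1 are below in both.

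Thinned to 3385 UMIs, Sall1 stayed below every control mouse at each later day, at 54.4, 56.7 and 56.0% at day 7, 58.4, 57.5 and 59.3% at day 14 and 61.1, 61.2 and 59.1% at day 28, where the gap to the lowest control was smallest. Thinned to 2000 UMIs instead, Sall1 at day 28 overlapped the controls, at 41.7 to 44.7% against 43.1 to 44.8%. Maf was below every control at day 7 (74.1%) and day 14 (78.5%), and Mef2a (82.2%), Mef2c (91.1%) and Bhlhe41 (25.8%, against 31.3% in controls) at day 7, Bhlhe41 in reverse of its direction at day 1. Cebpa (67.2%) and Irf8 (84.7%) were above every control at day 28. At 3385 UMIs each of these comparisons had p = 0.1 (exact two-sided permutation test, adjusted p = 0.2). How many of all genes were apart from the controls on this measure was not computed. In CPM it was 21.2, 10.4 and 8.93% at day 7, 14 and 28. Free RNA in droplets can give a cell a UMI of a gene it does not express. Border macrophages, which express little Sall1, would show that level, but the 185 cells with 4 or more border macrophage markers carried Sall1 in 39.7% (95% exact binomial interval 32.6 to 47.1%) at a median of 14130 UMIs before thinning, against 55.2% in cells with none of these markers at a median of 5768 UMIs. Of the 185 cells, 75 lay outside ATV:4D9 day 1, a group in which a mean of 39.5% of all thinned cells carried Sall1. The first contrast thus mixes group and markers. Those 75 carried it in 52.0% (40.2 to 63.7%) against 59.2%, an interval that includes the value of the cells without markers. Cells with border macrophage markers therefore set no background level for Sall1, and the level of the 9 genes in cells with markers of other types was not examined.

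The deposited clusters, numbered 0, 1 and 2, were made from these same cells, so levels in them are a description without a test. Of the ATV:4D9 day 1 cells, 18416 fell in cluster 2 and 945 and 1098 in clusters 0 and 1, while the control mice placed 339 cells in cluster 2 and 11364 and 8598 in the others. In the 12 mice outside ATV:4D9 day 1, cluster 2 held the lowest level of Sall1 (177 ± 19.0 CPM of the cluster's UMIs, against 272 ± 13.1 in cluster 0 and 309 ± 28.4 in cluster 1; SD, n = 12 mice), of Mef2a (427 against 601 and 702), of Mef2c (675 against 887 and 1034) and of Maf (355 against 501 and 700). This order is one of shares of UMIs, and cluster 2 cells were the deepest, with median UMIs of 7994 in the control mice against 6308 in cluster 0 and 4096 in cluster 1. In UMIs per cell, cluster 2 was below cluster 0 for Sall1, Mef2a and Maf in 12 of 12 mice and for Mef2c in 11 of 12, but below cluster 1 for Sall1 in 3, Mef2a in 2, Mef2c in 1 and Maf in 7 of 12. Sall1 thus stood at 2.02 ± 0.149, 1.41 ± 0.182 and 1.55 ± 0.213 UMIs per cell in clusters 0, 1 and 2 of these mice. At day 1 the 4 genes were again lowest in cluster 2 as a share, with Maf at 229, 396 and 593 CPM in clusters 2, 0 and 1. Per cell at day 1, however, cluster 2 was highest in each mouse for Sall1 (mean 1.44 UMIs against 1.25 in cluster 0 and 1.08 in cluster 1) and Mef2c (5.52 against 4.46 and 3.63). For Maf (2.27 against 2.17 and 2.23) and Mef2a (2.68 against 2.71 and 2.45) the means were close and the mice differed in order. In replicate 3, cluster 2 was lowest for Maf (1.75 against 1.83 and 2.02) and highest for Mef2a (2.542 against 2.536 and 2.406).

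Clusters 0 and 1, which hold most cells outside ATV:4D9 day 1, differed in the CPM of all 9 factors. Sall1, Mef2a, Mef2c, Maf and Bhlhe41 were higher in cluster 1 in 12 of 12 mice, by mean log2 ratios of 0.18, 0.22, 0.22, 0.48 and 0.40, whereas Spi1, Irf8, Runx1 and Cebpa were lower in 12 of 12, by -0.19, -0.12, -0.21 and -0.68. Cluster 1 cells were shallower, and in UMIs per cell all 9 factors were lower in cluster 1 than in cluster 0 in 12 of 12 mice. The ratio was furthest from level for Cebpa, at 1.46 ± 0.283 against 3.81 ± 0.735 UMIs per cell, and nearest to level for Maf, at 3.20 ± 0.543 against 3.72 ± 0.487 (SD, n = 12 mice).

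**Figure D4:**
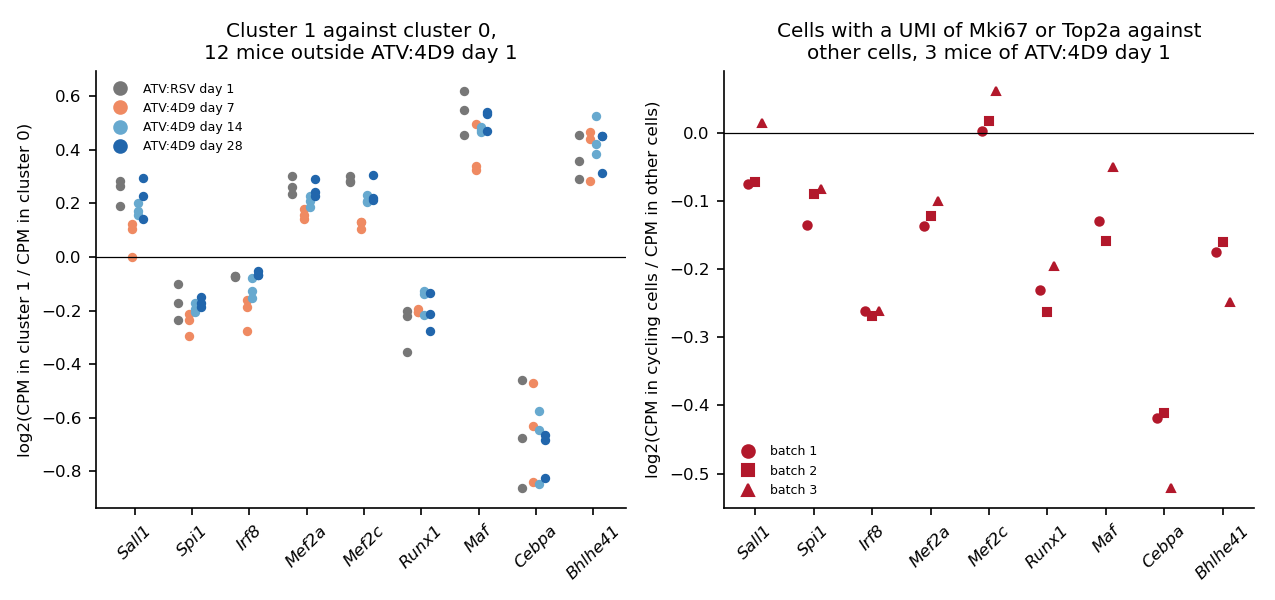
Left, log2 ratio of CPM (a share of UMIs, not UMIs per cell) in deposited cluster 1 to cluster 0 for each of the 12 mice outside ATV:4D9 day 1; right, log2 ratio of CPM in cells with a UMI of Mki67 or Top2a to other cells in the 3 ATV:4D9 day 1 mice. Sall1, Mef2a, Mef2c, Maf and Bhlhe41 lie above 0 on the left and Spi1, Irf8, Runx1 and Cebpa below, and on the right Cebpa is lowest, at a mean of -0.45.

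Cycling cells of the ATV:4D9 day 1 mice carried less Cebpa than the other cells of the same mice, at 99.5 ± 15.6 against 136 ± 16.0 CPM (SD, n = 3), and a lower level was seen in 3 of 3 mice, also in UMIs per cell (1.14 against 1.18). Irf8 (mean log2 ratio -0.26), Runx1 (-0.23), Bhlhe41 (-0.19), Mef2a (-0.12), Maf (-0.11) and Spi1 (-0.10) were also lower in CPM in 3 of 3 mice. Cycling cells held more UMIs, and per cell these 6 genes were higher in them in 3 of 3 mice, Irf8 at 4.36 against 3.99 UMIs and Spi1 at 4.77 against 3.90. Sall1 (-0.04) and Mef2c (0.03) differed little in CPM, with mice from -0.07 to 0.02 and from 0.00 to 0.06, and were higher per cell in 3 of 3 mice (1.69 against 1.33 and 6.65 against 4.98 UMIs). With the cycling cells left out, the falls of Cebpa, Maf, Mef2a, Sall1, Mef2c and Runx1 against controls each still passed in TMM-scaled sums, although in UMIs per cell the non-cycling day 1 cells held 1.59 of Runx1, as the control cells did.

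Relatives and binding partners of the 9 factors were counted from a list of 33 genes, of which 27 were tested. At day 1, 7 were higher, 16 lower and 4 did not pass, in the comparison where 69.2% of all genes passed, with a median log2 fold change of -0.37 against -0.05 over all genes. Irf7, an interferon-induced member of the IRF family, rose from 4.62 to 76.7 CPM (log2 fold change 4.15, SE 0.233, adjusted p = 2.63e-10), while Irf8 of the same family moved by -0.13. Fli1, an ETS factor like PU.1, fell (-0.95, SE 0.0564, adjusted p = 5.01e-10), as did Cebpd (-1.07, SE 0.0788, adjusted p = 6.74e-09). Cbfb, which encodes a binding partner of RUNX1, rose (0.66, SE 0.0495, adjusted p = 7.77e-09). Close relatives, named after their values were seen, went both ways. Mef2d fell (-0.67, adjusted p = 3.19e-08) as Mef2a and Mef2c did, and Bhlhe40 rose (0.98, adjusted p = 0.0108) as Bhlhe41 did. Maff (2.05, adjusted p = 2.59e-07) and Runx3 (1.85, adjusted p = 0.00675) rose where Maf and Runx1 fell. At day 7, 2 of the 27 passed against controls, Cebpd (-0.46) and Fli1 (-0.24), where 3.98% of all genes did, and the median of the list was -0.01, as it was 0.02 at day 14 and -0.02 at day 28.

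Of 9 genes for signals upstream of microglial identity, 8 were tested, and 1 was higher, 5 lower and 2 did not pass at day 1 (median -0.30), a share near the 69.2% of all genes that passed. Csf1, a growth factor for microglia, rose from 37.8 to 121 CPM (1.67, SE 0.111, adjusted p = 1.80e-09) and its receptor Csf1r fell (-0.47, SE 0.0372, adjusted p = 1.37e-08). The TGF-beta signal transducers Smad3 (-0.51) and Smad4 (-0.54) fell as well. Csf1 was still higher at day 7 (0.67, adjusted p = 0.00235). Of 13 homeostatic microglial genes, 1 was higher, 11 lower and 1 did not pass at day 1 (median -0.57), with the lowest adjusted p for P2ry12 (-1.31, SE 0.0503, adjusted p = 3.84e-12) and Siglech (-0.97, SE 0.0449, adjusted p = 3.08e-11), followed by Csf3r (-0.78, adjusted p = 9.81e-11) and Slc2a5 (-1.15, adjusted p = 2.61e-10), which fell more than Siglech. At day 7, 4 of the 13 were lower and 1, Csf3r, which had been lower at day 1, was higher (0.29, adjusted p = 0.000354), when 3.98% of all genes and 0 of the 9 factors passed.

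Genes whose level followed each factor most closely over the 15 mice were looked up among 10965 well-covered genes, as a description with no test, since most of the variance is the step at ATV:4D9 day 1. Mef2a was matched most closely by Pxn (r = 0.996) and Sall1 by Pheta1 (r = 0.995) and Stat5b (r = 0.994). Mef2c was followed by Smad1 (r = 0.992), Maf by Ccdc93 (r = 0.989) and Cebpa by Mtmr10 (r = 0.986). Looser matches were found for Spi1 (Zfp414, r = 0.967), Bhlhe41 (Ccnd1, r = 0.933), Irf8 (Zc3h10, r = 0.912) and Runx1 (Notch1, r = 0.910). Among the factors themselves, Sall1 and Mef2c had r = 0.98 over the 15 mice and 0.69 over the 12 mice without ATV:4D9 day 1, and Sall1 and Cebpa 0.93 and -0.39.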

How the data were processed

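UMI counts per gene and cell were deposited by the authors as a sparse matrix with a table of cells that gives each cell's animal, batch and cluster. Per the labels, libraries were 10x Genomics Chromium 3' libraries processed with Cell Ranger 4.0.0 on mm10, and the clusters were made by the authors. Deposited cells had at most 24995 UMIs and 10% mitochondrial UMIs. No doublets were removed here. Cells were assigned to mice through the deposited animal identifier.

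Sums per mouse were scaled by TMM, filtered with filterByExpr (minimum count 10, total 15) and fitted as group means over all 15 mice by limma-voom, using R 4.3.3, edgeR 4.0.16 and limma 3.58.1, with Benjamini-Hochberg adjustment over 14260 genes. CPM per mouse are TMM-scaled, and CPM by cluster or by cycling state are scaled to the UMIs of those cells alone. Mice were the replicates. The test was tried on simulated counts. Per-cell values were compared by exact two-sided permutation tests. Alternatives were edgeR's quasi-likelihood test, DESeq2 1.42.0, library size scaling, no filter, a replicate (batch) block, only the groups compared, thinned cells, cells without cycling or other-type markers, and leaving out each mouse. Batches pair the mice by the labels: residuals of mice of a batch correlated by a mean r of 0.104 over 30 pairs (-0.216 to 0.367). The mean over 60 pairs of different batches was -0.0521. It is no separate evidence, since subtracting the group means ties it to the first value. Intervals of fold changes include the spread between mice, and binomial intervals cover counting error only. All 9 factors were named in each comparison; from each further list up to 4 genes per comparison were named, lowest adjusted p first among called genes with at least 10 UMIs in every mouse compared, and for likeness the nearest by Pearson r of log2 CPM. Mef2d, Bhlhe40, Maff and Runx3 were named at day 1 outside this rule, after their values were seen. The factors and gene lists were chosen with earlier results of these data known. Some genes of these lists are not reported here by name.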

Additional observations from a re-analysis of the deposited data

Results flagged for a closer look

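All 9 factors were flagged because their difference from ATV:RSV at day 1 differed from that at day 7, tested directly as ATV:4D9 day 7 against ATV:4D9 day 1 (limma-voom, n = 3 mice per group; adjusted p from 1.05e-09 for Mef2a to 0.0271 for Spi1). The log2 differences were 0.64 for Sall1, -0.20 for Spi1, 0.29 for Irf8, 0.87 for Mef2a, 0.42 for Mef2c, 0.27 for Runx1, 0.88 for Maf, 1.61 for Cebpa and -0.60 for Bhlhe41. In this comparison 66.9% of all genes passed, so a flag was the common outcome.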

How the results depend on the processing

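For the number of factors called in each comparison, 142 of 145 recomputed values were labelled as unchanged, a label that allows small shifts in the count. At day 1 the count fell below 9 wherever Irf8 lost its call, and under library size scaling, where Spi1 and Bhlhe41 lost theirs. For day 7 against day 1 it fell where Runx1 or Spi1 lost theirs. The 3 values not so labelled all concern ATV:4D9 day 7 against ATV:RSV, where 0 were called. DESeq2 called 1 (Irf8, 0.17, adjusted p = 0.0291) and library size scaling 3 (Mef2a -0.23, Mef2c -0.19, Maf -0.39, adjusted p from 0.0238 to 0.0325). The fit with the batches as a replicate block called 1 (Maf, -0.30, adjusted p = 0.00737). The block changed no other call. In 945 recomputed log2 fold changes no called change turned sign, and 44 values that were called neither before nor after did, none beyond 0.15 in size. Of the 945, 270 were recomputed from values called in the reported fit. Whether a value passed or did not pass was unchanged in 922, while a call was lost in 18 and gained in 5. Irf8 at day 1 lost its call with DESeq2, no filter, only the groups compared and without cycling cells. It also lost it without replicate 1 or 2 of ATV:4D9 day 1 (-0.09 and -0.12) or replicate 1 or 3 of ATV:RSV (-0.12 and -0.13). Of 666 per-cell differences, 32 moved by more than the spread between mice, most of them without thinning. Depth limited the sums little, with 3177 to 47835 UMIs of a factor in each mouse, and the number of mice limited them more.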

Other observations

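Spi1 followed the processing batch within every group: batch 1 was lowest and batch 3 highest in 5 of 5 groups, with log2 ratios of batch 3 to batch 1 from 0.19 to 0.23. Maf ran the other way, batch 1 highest and batch 3 lowest, in 4 of 5 groups. All batches hold all groups, so these offsets are shared by the groups compared. The Spi1 differences at day 1 within the batches were 0.22, 0.27 and 0.25.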
